A study of Glycine max with 12 samples.

Results

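The comparison described here sets soybean (Glycine max) roots carrying the arbuscular mycorrhizal fungus Rhizophagus irregularis, called Ri, against roots carrying Glomus aggregatum at a high level of colonization, called Ga-H. The libraries were taken by their labelled inoculum, which gave 3 Ri and 3 Ga-H libraries, 6 of the 12 root libraries in the series. The other 6 are 3 libraries of roots with no fungus (NM) and 3 with G. aggregatum at low colonization (Ga-L), which entered the fits for their spread and are quoted beside single genes. All 12 were made from total RNA of root tissue, and the labels record no cultivar, plant age, harvest time or fertilizer, nor whether replicates were separate plants, so the p-values measure the spread between these libraries, which may be technical. The total expected count, an estimate of reads per gene, ranged from 10182200 to 10732861 in the 6 libraries compared.

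Arbuscular mycorrhizal fungi grow into the root cortex and build branched exchange structures, the arbuscules, inside cortical cells. The plant receives mineral nutrients, phosphate above all, and pays with sugars and lipids, and plant genes for phosphate uptake and lipid export are known to be switched on in cells that hold arbuscules. Fungal species differ in how far they colonize a root and in how much a host gains from them, and the title of the study places sugar metabolism and export at the centre of that question. The deposited gene IDs could not be paired with names here (0 of 49551 matched the reference table), so genes are given by ID, no role is assigned to any of them, and markers of root cell types or of colonization could not be checked by name. The ID itself gives the chromosome and an order along it in the soybean annotation Wm82.a2.v1. In bulk root RNA, fewer cells of a type and less RNA per cell cannot be told apart.

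One Ri library stood apart from the other Ri libraries before any test. Levels were compared between libraries as log2 CPM, counts scaled to library size with TMM factors. Of 36323 tested genes, 8.65% were at least 2-fold apart between Ri replicates 2 and 3, but 22.1% between Ri replicates 1 and 2 and 16.0% between replicates 1 and 3. By this count Ri replicate 1 was closer to every library of the other groups than to either of its own. Between it and Ga-H replicates 1, 2 and 3, 9.96%, 10.9% and 9.60% of genes were 2-fold apart. The shares were 10.5% to 15.3% for Ga-L and 12.8% to 14.9% for NM. By the median absolute log2 difference it was not closer to every one: 0.34 from Ri replicate 3 but 0.35 from Ga-L replicate 3. Among the 6 libraries compared, the Ga-H libraries were the most alike, with 5.08% to 5.97% of genes 2-fold apart between any pair of them. Ri replicate 2 was the farthest from Ga-H, at 15.6% to 18.8%, and Ri replicate 3 lay at 9.90% to 12.7%. The test across genes is therefore given with and without Ri replicate 1, and descriptions of the genes called without it rest on the other Ri libraries alone.

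**Figure D1:**
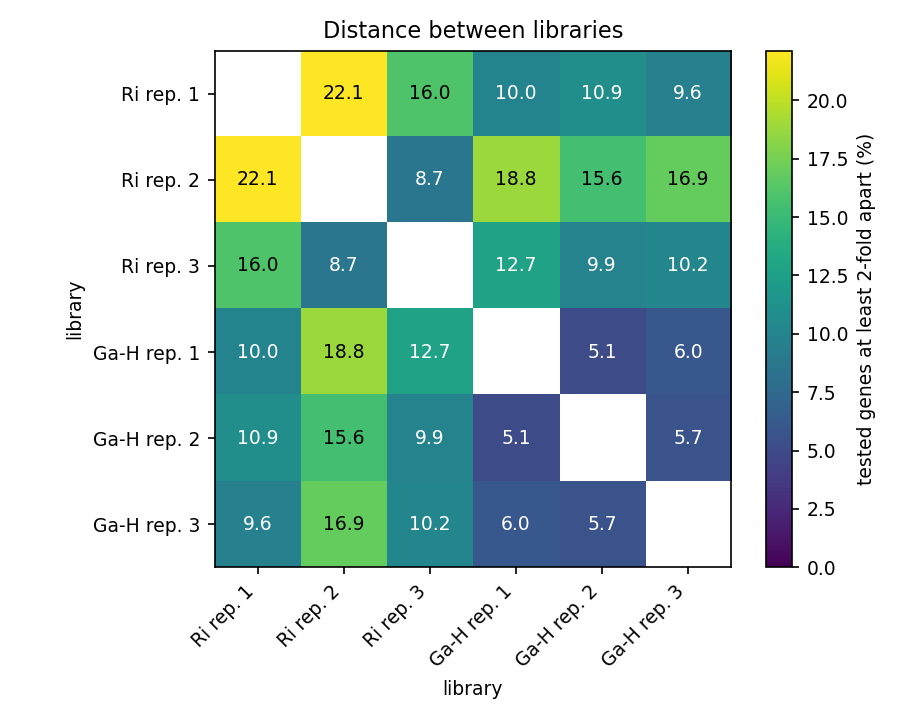
Percent of the 36323 tested genes that were at least 2-fold apart (log2 CPM) between each pair of the 6 libraries, both axes listing the libraries. Ri replicate 1 differed from Ri replicate 2 at 22.1% of genes and from the Ga-H libraries at 9.60% to 10.9%.

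With all 3 Ri libraries, 3 genes were higher and 3 lower in Ri than in Ga-H. These 6 are 0.0165% of the 36323 genes tested (0.00826% in each direction) where a call means a p under 0.05 in edgeR's quasi-likelihood test after Benjamini-Hochberg adjustment. In all 6, Ri replicate 1 lay on the same side of Ga-H as the other Ri libraries. The Ri and Ga-H libraries did not overlap in FPKM, the authors' value per transcript length and library size. Such separation of 3 libraries from 3 was found for 12.7% of all tested genes, so it is common by itself. An unadjusted p under 0.05 was reached by 3602 genes, 9.92% of those tested.

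Among the genes higher in Ri, Glyma.15G146500.Wm82.a2.v1 on chromosome 15 had the largest fold change. Its FPKM was 14.76, 19.55 and 14.07 in Ri replicates 1, 2 and 3 and 2.12, 2.70 and 2.04 in Ga-H replicates 1, 2 and 3. The lowest Ri library thus held several times the highest Ga-H library. Its log2 fold change of Ri over Ga-H was 2.81 (SE 0.36, adjusted p = 0.0402, edgeR). In roots without a fungus it was near the detection limit, at 0.09, 0.09 and 0.19 FPKM, from 1, 1 and 2 counts. The Ga-L libraries, at 4.35, 5.63 and 1.58 FPKM, stayed below all Ri libraries.

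Glyma.12G129500.Wm82.a2.v1, on chromosome 12, was measurable in every group. It stood at 9.99, 16.20 and 9.05 FPKM in the Ri libraries and at 1.66, 2.13 and 3.0 in the Ga-H libraries. All Ri values lay above all Ga-H values, and Ri replicate 2 was the highest. Ri exceeded Ga-H by 2.37 on the log2 scale (SE 0.29, adjusted p = 0.0265, edgeR). The NM libraries held 0.81, 0.64 and 0.68 FPKM and the Ga-L libraries 1.05, 1.39 and 1.57. In FPKM both G. aggregatum groups were thus nearer to uncolonized roots than to Ri. On the log2 scale Ga-H lay 1.62 above NM and 2.37 below Ri.

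The third gene higher in Ri was Glyma.03G253700.Wm82.a2.v1 on chromosome 3. The Ri libraries held 17.44, 17.52 and 13.12 FPKM and the Ga-H libraries 4.89, 3.97 and 3.44. Here Ri replicate 1 was at the level of Ri replicate 2. The fitted log2 difference came to 1.97 (SE 0.21, adjusted p = 0.0135, edgeR). NM libraries had 0.13, 0.07 and 0.20 FPKM, and the Ga-L libraries 5.48, 5.59 and 3.86, within about the range of Ga-H.

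In the other direction, Glyma.08G141000.Wm82.a2.v1 on chromosome 8 had the highest level in Ga-H of the 6 genes. It was at 9.05, 8.19 and 9.88 FPKM in Ri and at 35.80, 32.55 and 39.64 FPKM in Ga-H. The 3 Ri libraries lay close together and well below every Ga-H library. Its log2 fold change of Ri over Ga-H was -1.98 (SE 0.21, adjusted p = 0.0135, edgeR). The Ga-L libraries, at 42.03, 32.60 and 35.01 FPKM, matched Ga-H in level, and the NM libraries had 1.53, 2.97 and 3.59.

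Glyma.15G219400.Wm82.a2.v1, on chromosome 15, was at 2.37, 3.70 and 3.59 FPKM in Ri and at 11.10, 12.98 and 9.72 in Ga-H. Ri replicate 1 was the lowest of the 6 libraries and was level with the highest NM library, 2.35 FPKM. On the log2 scale Ri minus Ga-H came to -1.80 (SE 0.18, adjusted p = 0.0135, edgeR). Ga-L libraries, at 7.44, 7.80 and 7.53 FPKM, lay between the other colonized groups, and the remaining NM libraries held 1.60 and 1.87.

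Glyma.20G137400.Wm82.a2.v1, on chromosome 20, showed the smallest change of the 6. It stood at 3.32, 2.64 and 2.57 FPKM in Ri and at 7.45, 6.87 and 6.93 in Ga-H. The highest Ri library was Ri replicate 1, which lay well below the lowest Ga-H library. The fitted log2 difference of Ri minus Ga-H came to -1.31 (SE 0.15, adjusted p = 0.0227, edgeR). NM libraries were at 0.15, 0.15 and 0.22 FPKM and Ga-L libraries at 9.21, 10.83 and 8.15.

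**Figure D2:**
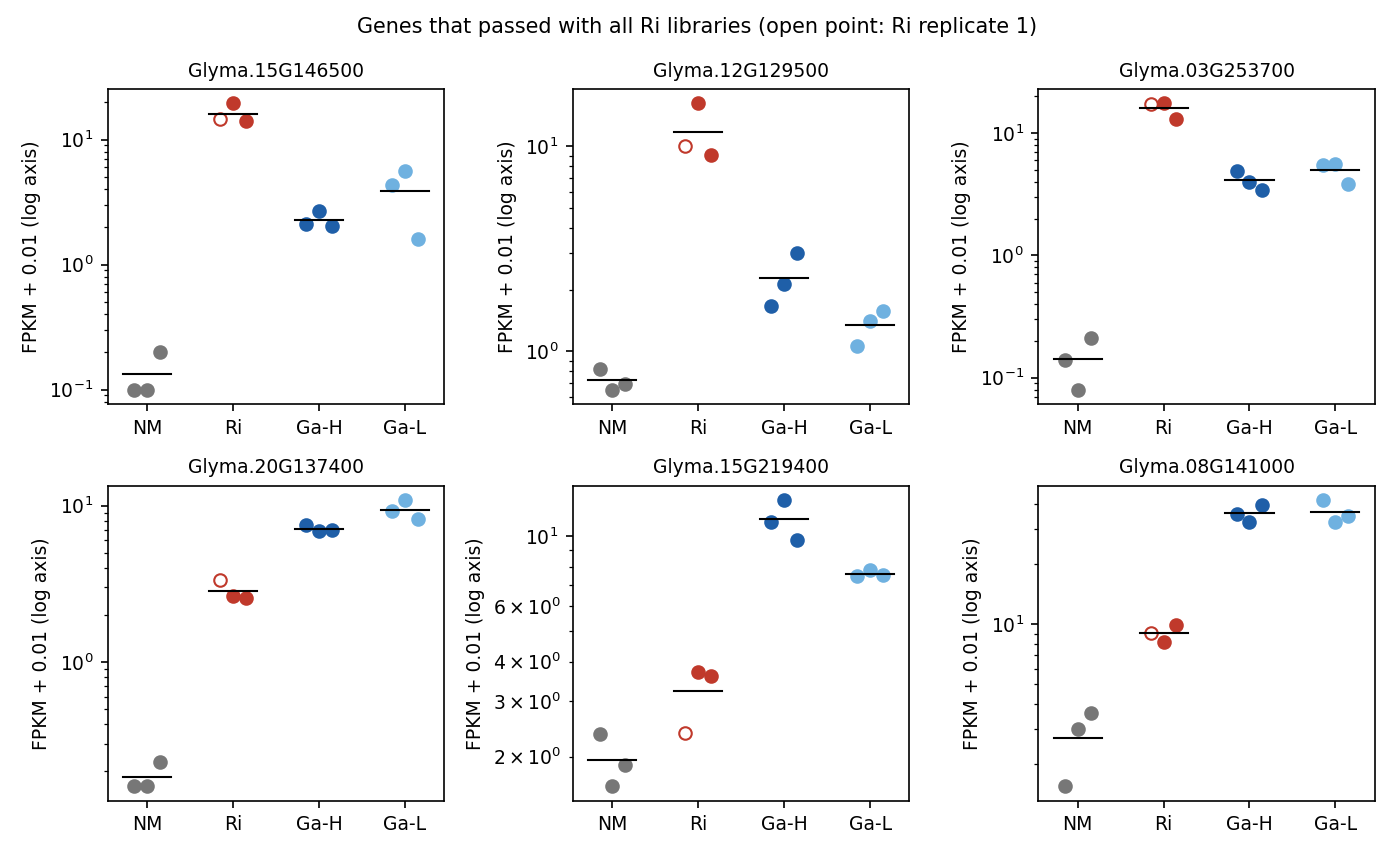
FPKM plus 0.01 on a log axis in all 12 libraries, by group, for the 6 genes that passed with all Ri libraries; points are libraries, black lines are group means and the open point is Ri replicate 1. In each panel the 3 Ri libraries lie on one side of the 3 Ga-H libraries, and the NM libraries have the lowest group mean.

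Each of the 6 genes was higher than in uncolonized roots in both groups. Against NM, the log2 fold changes in Ri were 6.85, 4.0 and 6.80 for the genes on chromosomes 15, 12 and 3 that were higher in Ri, and in Ga-H they were 4.03, 1.62 and 4.82. For the genes lower in Ri, on chromosomes 8, 15 and 20, the log2 fold changes against NM were 1.72, 0.71 and 3.99 in Ri and 3.70, 2.51 and 5.30 in Ga-H. All 12 values passed in edgeR, with adjusted p from 8.68e-07 to 0.0331, in comparisons that called 9.08% of genes higher and 4.04% lower in Ri than in NM, and 6.25% higher and 1.87% lower in Ga-H. These comparisons share the NM libraries and are set side by side only. The genes thus differed in how far they stood above uncolonized roots, with neither fungus at the NM mean. Set against Ga-L with the same Ri libraries, all 6 also had no overlap with Ri, as had 22.5% of tested genes, and on the side on which Ga-H lay.

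These calls were near the threshold. Every one of the 6 was lost without Ri replicate 3, without Ga-H replicate 1 or without Ga-H replicate 2, and adjusted p over the 23 alternatives of each gene ran up to 0.301. In those settings edgeR called 0 genes, with 1381, 1088 and 1560 higher and 1262, 1109 and 1485 lower genes at an unadjusted p under 0.05. Without Ga-H replicate 3 it called 1 higher and 1 lower gene, without NM replicate 1 or 2 in each case 1 and 4, without NM replicate 3 in turn 3 and 5, and without Ri replicate 2 or Ga-L replicate 3 in each case 5 and 3. DESeq2 called 132 higher and 146 lower genes with all Ri libraries, and limma on log2(FPKM + 1) called 13 and 29. Glyma.15G146500.Wm82.a2.v1 was also lost without NM replicates 1, 2 or 3, Ri replicate 2, Ga-H replicate 3 or Ga-L replicate 1. Glyma.12G129500.Wm82.a2.v1 was also lost without NM replicates 1 or 2, Ga-H replicate 3 or Ga-L replicate 2. Glyma.20G137400.Wm82.a2.v1 was also lost without Ri replicate 2 or Ga-H replicate 3, and Glyma.08G141000.Wm82.a2.v1 and Glyma.03G253700.Wm82.a2.v1 without Ga-H replicate 3. Over the alternatives the fold changes ranged from 2.37 to 2.95, 1.95 to 2.63, 1.74 to 2.11, -2.05 to -1.88, -1.91 to -1.55 and -1.46 to -1.08 on the log2 scale in the order in which the genes were described. Fitting the Ri and Ga-H libraries alone kept only the call of Glyma.08G141000.Wm82.a2.v1 among the 6, the others having adjusted p from 0.0509 to 0.261. Leaving out Ri replicate 1 kept all 6 calls, with adjusted p from 0.00208 to 0.00674 in edgeR.

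Without Ri replicate 1 the comparison was of another size. The same edgeR test on 36925 genes found 914 above Ga-H (2.48%) and 1391 below it (3.77%), 6.24% in all. An unadjusted p under 0.05 was reached by 8647 genes, 23.4%. In this fit the lower calls were more numerous, an order that was reversed with Ri replicate 3 as the only Ri library. The median log2 fold change was -1.37 (quartiles -1.84 and -0.98) among the lower genes and 1.09 (quartiles 0.74 and 1.57) among the higher genes. These medians are over genes that passed the threshold, and the sets differed in level. Below a mean of 1 FPKM 27 genes were higher and 90 lower, and from 20 to 100 FPKM 262 and 312. A change of 2-fold or more was found for 516 higher and 1022 lower genes, and of 8-fold or more for 13 and 62. Over all tested genes the median log2 fold change was -0.01. The estimated biological coefficient of variation fell from 22.4% with all libraries to 18.1% without this one.

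These numbers rested on few libraries. With Ri replicate 3 as the only Ri library, assumed to vary like the other groups, 114 genes were higher and 69 lower, and with Ri replicate 2 alone 865 and 1303. Without Ga-H replicate 1 there were 203 and 361, and without Ga-H replicate 2 there were 368 and 776. Ri replicate 2 was farther from the Ga-H mean than Ri replicate 3 for 75.9% of higher and 81.4% of lower genes. These replicates were at least 2-fold apart for 125 higher and 253 lower genes.

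Ri replicate 1 did not enter this test, but it was left out because it stood apart from the other Ri libraries. Its nearness to Ga-H was known from the distances between libraries, so its place among the called genes is a description of that. Among the 914 higher genes, the median log2 CPM above the Ga-H mean was 1.23 in Ri replicate 2 and 0.92 in Ri replicate 3, and Ri replicate 1 lay at -0.11. Among the 1391 lower genes the medians were -1.53 and -1.14, and Ri replicate 1 lay at 0.04. Ri replicate 1 was thus near the Ga-H libraries, whose own medians ran from -0.10 to 0.06 for the higher and from -0.07 to 0.08 for the lower genes. For the higher genes it lay just below all of them. The Ga-L medians ran from -0.04 to 0.06 for the higher and from -0.27 to 0.01 for the lower genes. Those of NM ran from -0.42 to -0.25 and from 0.01 to 0.36. A level near Ga-H was thus not particular to Ri replicate 1. Ri replicate 1 was nearer to the mean of the other Ri libraries than to the Ga-H mean for 127 higher (13.9%) and 122 lower genes (8.77%).

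**Figure D3:**
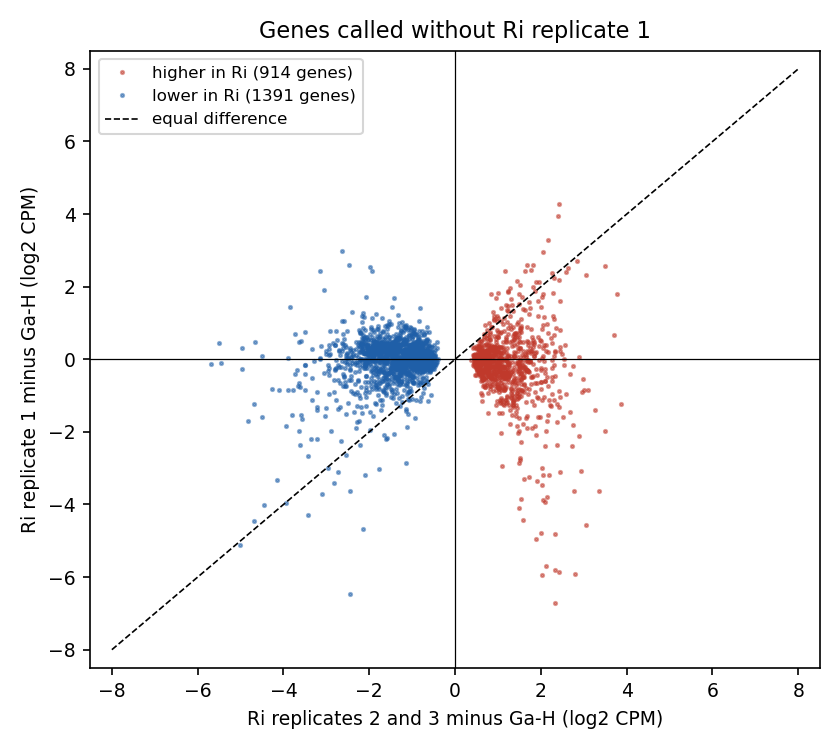
Each point is a gene called without Ri replicate 1; the x axis is the mean log2 CPM of Ri replicates 2 and 3 minus the Ga-H mean, the y axis the same difference for Ri replicate 1, and the dashed line marks equal differences. The 914 higher and 1391 lower genes spread around 0 on the y axis, with medians of -0.11 and 0.04.

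In FPKM, Ri replicate 1 fell within the range of the Ga-H libraries for 295 higher and 555 lower genes. It lay beyond all Ga-H libraries on the side opposite to the other Ri libraries for 397 higher (43.4%) and 407 lower genes (29.3%). It lay beyond them on the same side for 222 higher (24.3%) and 429 lower genes (30.8%), shares near those among all tested genes with Ri replicates 2 and 3 above (27.1%) or below (32.5%) every Ga-H library. The set in which all 3 Ri libraries stood on one side therefore held 651 of the 2305 genes (28.2%). Over all 36925 tested genes, Ri replicates 2 and 3 by themselves were on one side of all Ga-H libraries for 42.6%.

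A small group went far the other way. For 26 of the 914 higher genes Ri replicate 1 was at least 8-fold below the Ga-H mean in log2 CPM, and for none of the 1391 lower genes was it at least 8-fold above. The median level of these 26 genes was 0.06 FPKM in Ri replicate 1, 11.7 in Ri replicates 2 and 3, 2.06 in Ga-H, 0.588 in Ga-L and 0.488 in NM. In 15 of them Ri replicate 1 was below every NM library, and in 12 it was the lowest of all libraries. The 26 were picked by this library's values, and their median in it was near the detection limit. They are given as a description, as the share over all tested genes was not computed.

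Seen across all libraries, the called genes set Ri replicates 2 and 3 apart from the other 10 libraries. The 914 higher genes took 5.95% and 4.62% of all counts in Ri replicates 2 and 3, 2.15% in Ri replicate 1, 2.35% to 2.58% in Ga-H, 2.19% to 2.31% in Ga-L and 1.69% to 1.95% in NM. The 1391 lower genes took 2.56% and 3.24% of counts in Ri replicates 2 and 3, but 6.91% in Ri replicate 1, 6.01% to 6.74% in Ga-H, 6.90% to 7.24% in Ga-L and 6.92% to 7.61% in NM. In neither set did any other library reach the range of these Ri libraries. The genes were chosen on the difference between Ri replicates 2 and 3 and Ga-H. Ri replicate 1 was left out because it stood apart from the other Ri libraries, and its nearness to Ga-H was known. Ga-L and NM entered the same fit through its spread and low-count filter. Genes picked for extreme values in Ri replicates 2 and 3 also tend to leave any other library away from them. The places of all libraries are therefore a description.

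**Figure D4:**
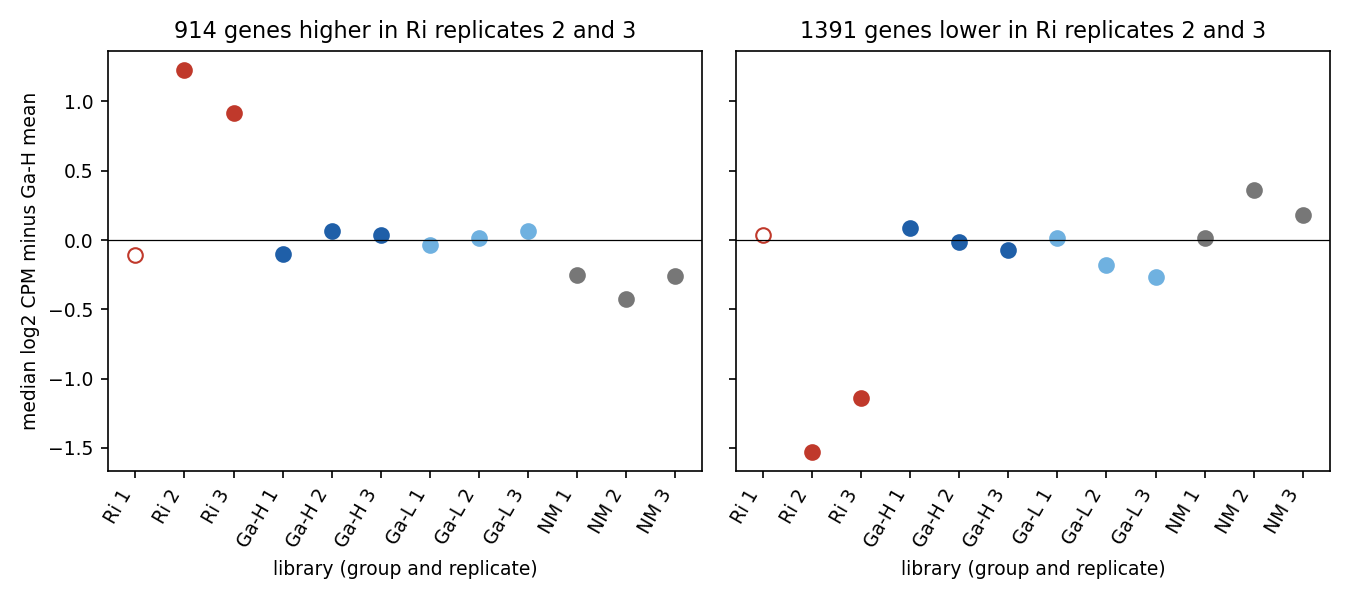
Median over genes of log2 CPM minus the Ga-H mean in each of the 12 libraries, for the 914 genes higher (left) and the 1391 genes lower (right) without Ri replicate 1; each point is a library and the open point is Ri replicate 1. Ri replicates 2 and 3 lie at 1.23 and 0.92 on the left and at -1.53 and -1.14 on the right, and the other libraries lie between -0.42 and 0.36.

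The level in uncolonized roots differed between the sets. For 650 of the 914 higher genes (71.1%) the NM mean lay below the Ga-H mean, and for 253 it lay between the groups. In the 650 genes the group means thus rose from NM through Ga-H to Ri replicates 2 and 3. This is an order of means only, and its share over all tested genes was not computed. Ri replicate 1 did not share the last step, with a median of -0.11 from the Ga-H mean over the 914 genes. Against NM, the median log2 fold change of the higher genes was 1.30 in Ri without replicate 1 and 0.30 in Ga-H. In Ri, 794 of them were called higher than NM and 1 lower, in a comparison that called 14.5% of all genes higher and 13.4% lower. In Ga-H, 259 were called higher, 37 lower and 618 neither, where 8.32% of all genes were called higher and 3.72% lower.

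Most of the lower genes were reduced below uncolonized roots in Ri without replicate 1. As a set they took 6.91% of counts in Ri replicate 1, close to the 6.92% to 7.61% in NM. For 888 of the 1391 (63.8%) the NM mean lay above the Ga-H mean, for 320 it lay between the groups, and for 183 (13.2%) it lay below Ri. Against NM, their median log2 fold change was -1.47 in Ri without replicate 1 and -0.22 in Ga-H. In Ri without replicate 1, 1080 (77.6%) were called lower and 118 (8.48%) higher than NM, against 13.4% and 14.5% of all tested genes. In Ga-H, 202 (14.5%) were called lower and 250 (18.0%) higher, against 3.72% and 8.32% of all tested genes. Both comparisons use the same NM libraries, and each also shares a group with the contrast that chose the genes, so these counts describe where the levels lay and test nothing further.

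The Ga-L mean was nearer to Ga-H than to the mean of Ri replicates 2 and 3 for 801 of the higher genes (87.6%). For the lower genes this held for 1108 (79.7%). The Ga-L mean went beyond that Ri mean for 17 and 34 genes. The genes were chosen for the gap between these Ri libraries and Ga-H, and shares over all tested genes were not computed. These counts are therefore a description. For the lower genes, the Ga-L libraries had medians of 0.01, -0.18 and -0.27 relative to the Ga-H mean, a step toward Ri in Ga-L replicates 2 and 3 that remained far from -1.14, the Ri library nearest to them.

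Few genes were detected with one fungus and at 0 with the other. With all Ri libraries, 86 genes were listed in every Ga-H and no Ri library and 65 in every Ri and no Ga-H library, but none of either had a mean of 10 counts, the highest means being 8.33 and 8.72. Without Ri replicate 1, 5 genes with a mean of at least 10 counts in Ga-H were at 0 in both Ri libraries, and each of the 5 was listed in Ri replicate 1. One gene among the 2305 was at 0 in every Ri library, Glyma.13G297900.Wm82.a2.v1 on chromosome 13, named after its values were seen. It held 8, 8 and 6 counts in Ga-H (3.61, 3.44 and 2.63 FPKM) and 15, 13 and 5 in Ga-L, and 0 in all NM libraries. The groups with G. aggregatum were thus the only ones with a count of it. Against a floor of 3 counts per library it was at least 2.47-fold lower in Ri replicates 2 and 3 than in Ga-H. It passed the low-count filter only through the G. aggregatum libraries and was not tested with all Ri libraries, so no p is given for it.

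The genes with the largest fitted changes without Ri replicate 1 showed how much single libraries weighed. Glyma.05G011200.Wm82.a2.v1, on chromosome 5, was at 3.70 and 103.43 FPKM in Ri replicates 2 and 3 and at 0.45, 2.74 and 1.91 in Ga-H. Ri replicate 3 alone held most of its counts, 719.5 of 744.5. The fitted difference of Ri from Ga-H was 4.92 on the log2 scale (SE 1.07, adjusted p = 0.0286, edgeR), but 1.11 without Ri replicate 3 (adjusted p = 0.472) and 5.86 without Ri replicate 2. Ri replicate 1, at 4.82 FPKM, lay above all Ga-H libraries too, and with it in the fit the difference was 4.41 (adjusted p = 0.323). The call was lost in 11 of 22 alternatives, among them leaving out any 1 of the Ga-H libraries (adjusted p from 0.0561 to 0.105), with adjusted p from 0.00124 to 0.472 over all.

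Glyma.03G233900.Wm82.a2.v1, on chromosome 3, had the same shape, with 1.81 and 49.04 FPKM in Ri replicates 2 and 3 and 0.65, 0.66 and 1.55 in Ga-H. Ri replicate 1, at 0.21 FPKM, was below every Ga-H library. No other library held more than 9 counts of it, against 13 and 347 in Ri replicates 2 and 3. It passed the low-count filter only through these libraries and was not tested with all Ri libraries, so no p is given. The fitted log2 difference was 4.81 and came to 1.11 without Ri replicate 3.

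The deepest falls were in genes at 0 in Ri replicates 2 and 3. Glyma.13G014500.Wm82.a2.v1, on chromosome 13, had 0.24, 1.09 and 1.67 FPKM in Ga-H and 1.03 in Ri replicate 1. Against a floor of 3 counts per library it was at least 9.58-fold lower in Ri replicates 2 and 3 (adjusted p = 0.0217, edgeR), a call lost without Ri replicate 2 (0.163) or Ri replicate 3 (0.0594). It was also lost with the Ri and Ga-H libraries alone (0.0649), in limma on log2(FPKM + 1) with and without a filter (0.0915 and 0.11) and with library quality weights (0.0878). Glyma.10G192600.Wm82.a2.v1, on chromosome 10, had 2.45, 1.61 and 2.13 FPKM in Ga-H, 1.95, 2.38 and 2.52 in NM and 1.85 in Ri replicate 1. Against the same floor its Ga-H mean was at least 7.40-fold above Ri replicates 2 and 3. The fitted log2 difference was -7.46 (SE 0.92, adjusted p = 0.0062, edgeR), a call kept under all 22 alternatives. In these genes at 0 in Ri replicates 2 and 3, Ri replicate 1 lay within the range of Ga-H. With it in the fit the adjusted p was 0.646 and 0.554 (edgeR).

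**Figure D5:**
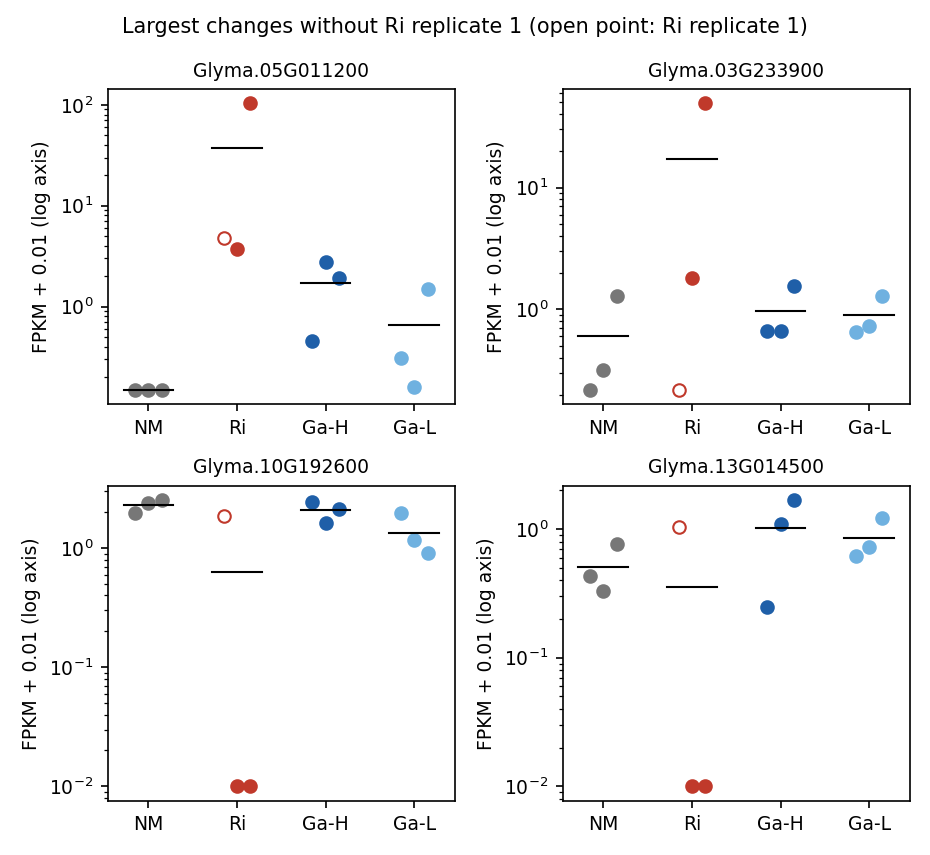
FPKM plus 0.01 on a log axis in all 12 libraries, by group, for the 4 genes with the largest fold changes without Ri replicate 1; points are libraries, black lines are means over 3 libraries and the open point is Ri replicate 1. The upper genes are far highest in Ri replicate 3 (103.43 and 49.04 FPKM), and the lower genes are at 0 in Ri replicates 2 and 3 but not in Ri replicate 1.

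Calls without Ri replicate 1 were spread over levels and chromosomes. Among genes with a mean under 1 FPKM, 0.70% were higher and 2.32% lower in Ri, and among genes from 20 to 100 FPKM the shares were 4.48% and 5.34%. On the 20 chromosomes, between 5.08% (chromosome 11) and 7.51% (chromosome 19) of tested genes were called, around 6.24% for all. The number of genes listed above 0 was 43463 ± 410 in Ri (SD, n = 3) and 43666 ± 39.8 in Ga-H (n = 3), with a 2-sided exact permutation p of 0.8, and 0.6 without Ri replicate 1, in designs that cannot go below 0.1 and 0.2.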

How the data were processed

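For each library the authors deposited gene-level values: a transcript length in bases, an expected count and FPKM, per the file headers. Bowtie2, HISAT and RSEM are named in the submitters' processing notes, with no versions or roles. Strand handling is not given in the sources used here. Estimated counts divide reads among similar copies, so values of near-identical genes are uncertain. A gene missing from a table was set to 0.

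Expected counts were rounded to whole numbers and tested in R 4.3.3 with edgeR 4.0.16: default low-count filter by group, TMM scaling, a robust quasi-likelihood fit with 1 mean per group and no replicate block, the contrast Ri minus Ga-H, and Benjamini-Hochberg adjustment over all tested genes at 0.05. All 12 libraries were fitted, then 11 without Ri replicate 1. Each standard error is the fold change over the square root of F. log2 CPM used a prior count of 0.5. The fits were tested on simulated data. Counting error alone is covered by floors of 3 counts per library.

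Named genes are the 2 with the largest log2 fold change in each direction in each fit among called genes whose higher group averaged 1 FPKM or more and whose Ri and Ga-H libraries did not overlap. Glyma.03G253700.Wm82.a2.v1, Glyma.20G137400.Wm82.a2.v1 and Glyma.13G297900.Wm82.a2.v1 were added after their values were seen, the first pair to complete the 6 calls. None of the 59048 rows of the RefSeq table (assembly Glycine_max_v4.0) carries a matching ID, so lists planned by function were not used. The comparison, its members and lists were chosen with earlier results of these data known. Alternatives used DESeq2 1.42.0 and limma 3.58.1.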

Additional observations from a re-analysis of the deposited data

How the results depend on the processing

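With all Ri libraries, TMM, RLE, upper-quartile or total-count scaling and a 2-fold minimum each gave 3 higher and 3 lower genes. No low-count filter gave 5 and 7. DESeq2 gave 132 and 146. limma gave 13 and 29 on log2(FPKM + 1), 17 and 23 on that scale without a filter, and 1 and 2 on log2(FPKM + 0.1). Fitting the Ri and Ga-H libraries alone gave 0 higher (1157 at an unadjusted p under 0.05, edgeR) and 2 lower, 1 of them among the 6 genes. limma-voom with library quality weights, chosen after seeing the data, gave 613 and 1257, with Ri replicates 1, 2 and 3 weighted 0.272, 0.578 and 2.77. Leaving out each replicate gave 0 to 914 higher and 0 to 1391 lower, the upper ends without Ri replicate 1. Without Ri replicate 1, scaling gave 871 to 1007 higher and 1274 to 1412 lower. DESeq2 gave 1368 higher and 2087 lower, limma on log2(FPKM + 1) without a filter 601 and 673, and a 2-fold minimum 516 and 1022. Leaving out a further replicate gave 114 to 1081 higher and 69 to 1880 lower. The cause of these moves was not tested. Replicate numbers were not taken as pairs: same-numbered libraries deviated together with correlations of 0.223, 0.201 and 0.022. A replicate block gave 2 higher and 2 lower genes with all Ri libraries, and 295 and 463 without Ri replicate 1.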

Other observations

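Genes called without Ri replicate 1 had neighbours called the same way more often than tested genes in general. Ordering genes by ID along each chromosome, 112 of 910 higher genes (12.3%) had an adjacent tested gene that was also higher, against 4.88% of all tested genes. For the lower genes it was 213 of 1386 (15.4%) against 7.39%. Runs of at least 3 adjacent genes numbered 4 among the higher and 9 among the lower genes, and the longest, of 5 lower genes, was on chromosome 16. Neighbours can be near-identical copies that share reads, and this was not tested.

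The listed transcript length, which moves when the mix of isoforms changes, was compared for 5414 genes with several transcripts and at least 5 FPKM in every library, a choice made after seeing the data. limma on log2 length called 0 genes with all Ri libraries (271 at an unadjusted p under 0.05) and 0 without Ri replicate 1 (305). The smallest adjusted p was 0.0841 and 0.149.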
